A study of Mus musculus with 6 samples.

Results

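The 34 genes described here encode enzymes and carriers that break down amino acids or build urea in liver. They were chosen by function, as every probe set annotated to exactly one of the 34 symbols. The choice was made with earlier results of these data known. Of these, 32 were found, with 49 of the 45101 probe sets on the array, and 47 of the 49 lay above the filter on dim signals described below. The serine dehydratase-like gene Sdsl and the liver glutaminase gene Gls2 were not analysed here. All 32 genes passed the filter, out of 11894 tested among 18193 with their own symbol.

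Amino acids that are not used for protein lose their amino group in liver, mostly by transamination onto 2-oxoglutarate. The nitrogen is released as ammonia or carried by aspartate into the urea cycle, and the carbon skeletons feed glucose, ketone and lipid metabolism. Separate short pathways degrade histidine, the aromatic amino acids, tryptophan and lysine, while the methionine cycle supplies methyl groups and, through homocysteine, cysteine. SRC-2, encoded by Ncoa2, belongs to the p160 coactivators, which bind nuclear receptors and other transcription factors.

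Total RNA of whole liver was hybridised to short oligonucleotide arrays, 3 from female SRC-2 null (SRC-2-/-) mice and 3 from female wild-type mice, both on a C57 background. Ovariectomy at an age of 6 weeks, 2 weeks before the livers were taken, was shared by both genotypes. The labels do not describe the allele, the feeding state or the time of day, and do not say that each array stands for a separate animal. P-values therefore measure the spread between these arrays, which may be technical, and 3 arrays a group limit the precision of every value.

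Values are log2 expression values per probe set, so a difference of 1 is a doubling, and each gene is represented by its brightest probe set. Genes were tested when their mean over the 6 arrays was at least 4.21, the median of all probe sets. A gene is called higher or lower when its Benjamini-Hochberg adjusted p in limma, over all 11894 genes, is under 0.05. Levels of different probe sets cannot be set against each other, so only differences between genotypes are compared across genes.

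Array medians lay between 4.17 and 4.24, and Ncoa2 itself fell from 8.07 ± 0.41 to 5.63 ± 0.21 (SD, n = 3). Of 8 hepatocyte markers tested, none was called in limma (0 at an unadjusted p under 0.05, and 0 called under the settings listed with the member genes below), with a median difference of 0.00 and a summed level of 16.79 to 16.82 in wild-type and 16.77 to 16.80 in null liver. These probe sets had group means of 12.69 to 14.44 on arrays whose highest values were at least 14.45, so a change near the top of the scale could be missed, and the brightest carry the sum. Of 16 macrophage markers 15 were lower, with a summed level of 12.41 to 12.47 in wild-type and 11.35 to 11.46 in null liver. Of 5 B and plasma cell markers 3 were lower, with summed levels of 10.75 to 11.05 against 7.82 to 8.10 in null liver. Of 7 T and NK cell markers 2 were lower, with summed levels of 8.19 to 8.25 against 7.68 to 7.94 in null liver. Of 5 cholangiocyte markers 1 was higher and 2 were lower. Of 2 adipocyte markers Fabp4 was 3.31-fold higher, and of 2 erythroid markers Alas2 was 1.55-fold higher. Among 10 endothelial markers 1 was higher and among 10 stellate markers 2 were higher, while 5 neutrophil and 2 pancreas markers gave no call in limma (0 and 1 at an unadjusted p under 0.05). With the replicate block 1 pancreas marker was called lower. In whole tissue, fewer cells of a type and less RNA per cell cannot be told apart, and the part of these cell markers in the results below was not tested. Replicate 3 of both genotypes deviated together from the other arrays (correlation of deviations from the group means 0.52). Over all genes, 184 were called higher and 372 lower. Higher calls numbered 71, 65, 82, 77 and 101 without wild-type array 1, wild-type array 2, null array 1, null array 2 and null array 3, and 307 with the replicate number as a block. Lower calls numbered 210, 219 and 217 without wild-type array 2, null array 1 and null array 2.

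Of the 32 amino acid breakdown genes, 8 were called higher, namely Agxt, Asl, Hal, Aass, Mat1a, Gpt, Ftcd and Arg1, 1 was called lower, Kyat3, and 23 did not pass. Over all genes tested, 1.55% were called higher and 3.13% lower. Because the members were chosen with earlier results of these data known, the shares set beside them here and below describe the list and do not test it. The 8 rises ran from 1.3-fold for Arg1 to 1.77-fold for Agxt, and Kyat3 fell 1.86-fold. The difference was above 0 for 28 of the 32, against 50.6% of all genes tested, and the median difference was 0.19 on the log2 scale, against 0.00 over all genes. The 3 null values all lay above the 3 wild-type values for 20 of the 32 genes, against 10.8% of all genes tested, and all below for 2, Kyat3 and Prodh, against 12.5%. Most of these genes gave bright signals, and the following bands of brightness were chosen after the values were seen. Among the 2667 genes with a mean of at least 8, which include 31 of the 32, 66 were called higher and 135 lower, with a median of 0.00. The null values lay all above the wild-type values for 425 of these 2667 and all below for 548. Among the 306 genes at or above the median member mean of 11.18, 13 were called higher and 15 lower, with a median of 0.00. In this band the null values lay all above for 63 of the 306 and all below for 81, larger shares than over all genes.

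**Figure D1:**
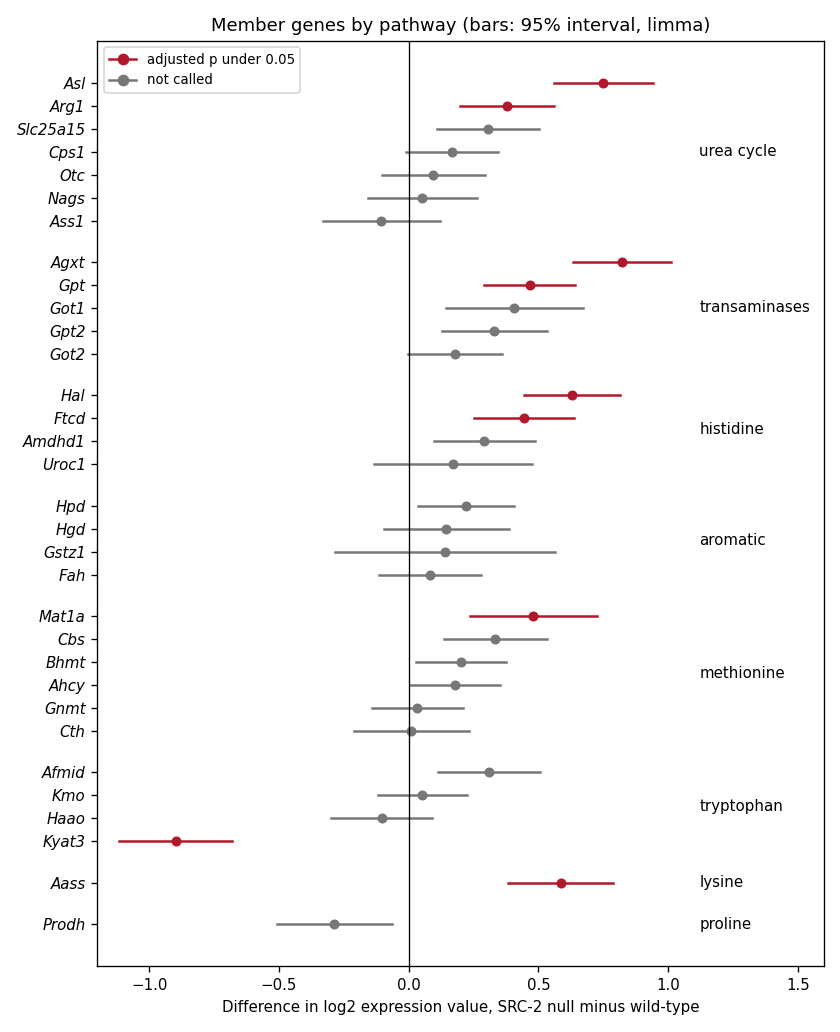
Difference in log2 expression value between SRC-2 null and wild-type liver (x axis) for the 32 genes (y axis), grouped by pathway. Points are limma estimates from 3 arrays a group, bars are 95% intervals, and red marks an adjusted p under 0.05. Of the 9 red genes 8 lie to the right of 0, and Kyat3 at -0.90 lies to the left.

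Agxt, Asl, Hal, Aass and Kyat3 were called under all 15 alternative settings of the fit, which include leaving out each array in turn. Arg1 and Mat1a lost their calls whichever array was left out, at adjusted p values of 0.0637 to 0.132 and 0.0588 to 0.158 in limma. Ftcd lost its call without any array but wild-type array 3 (adjusted p 0.0637 to 0.0971), and Gpt without wild-type array 1, wild-type array 2 or null array 2 (adjusted p 0.053 to 0.0584). The number called higher was thus 4 without wild-type array 1, wild-type array 2 or null array 2, 5 without null array 1 or null array 3, and 6 without wild-type array 3. It was 14 when replicate 3 of both genotypes was set apart as a term, and 17 when the variance prior followed the signal level and was made robust.

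The plot of adjusted p by setting shows where each call held. With the replicate number as a block, Got1 was called as well (limma adjusted p = 0.0337), as it was with replicate 3 set apart and with the robust trended prior. Slc25a15, Amdhd1 and Afmid were called under 3 settings, with replicate 3 set apart, with the robust trended prior and with array weights. Cbs was called under these 3 and with the mean of its probe sets. Kyat3 was the lower call under each of the 15 settings.

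**Figure D2:**
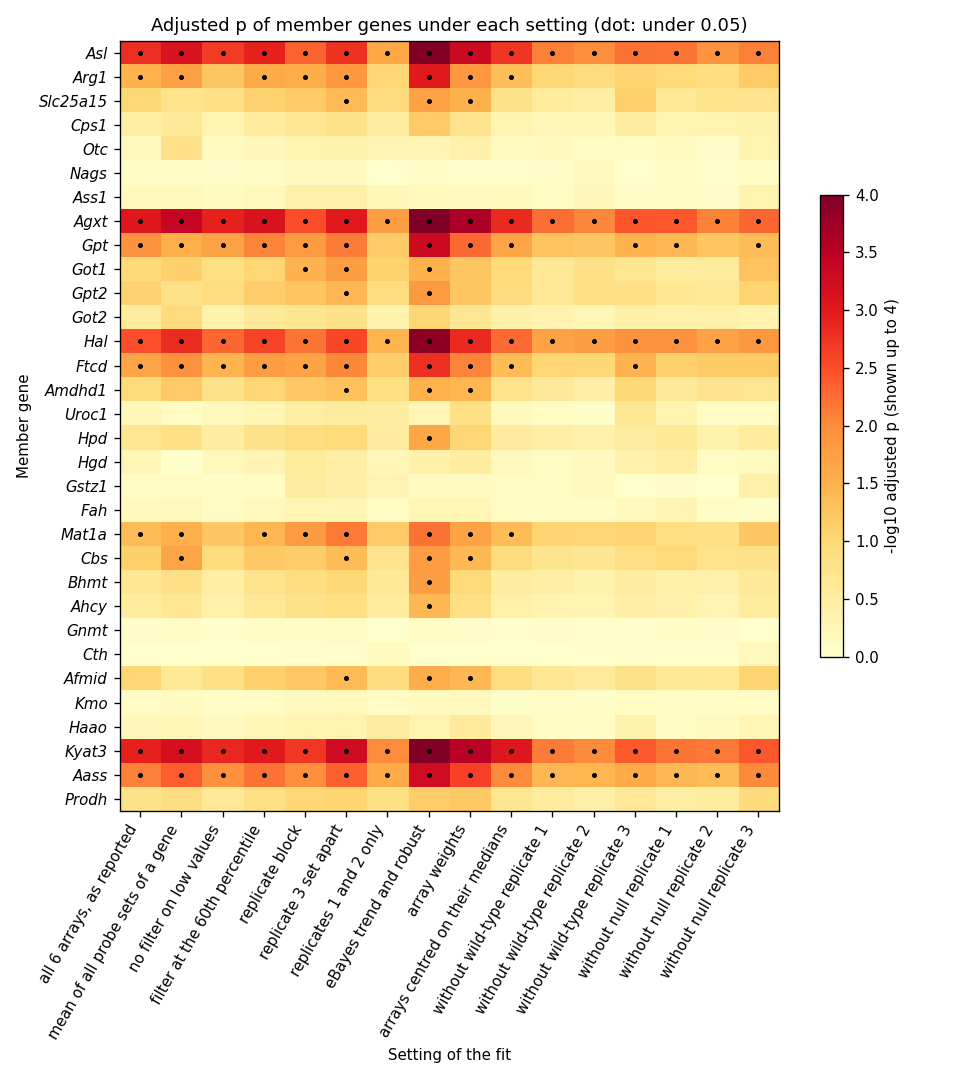
Adjusted p of each of the 32 genes (rows, grouped by pathway as in the plot of differences) under the reported fit and 15 alternative settings (columns). Colour gives -log10 of the adjusted p up to 4, and a black dot marks an adjusted p under 0.05. The rows of Asl, Agxt, Hal, Kyat3 and Aass carry a dot in every column.

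Within replicates 1 and 2 the difference was above 0 for 27 of the 32 genes, with a median of 0.21, and within replicate 3 for 28, with a median of 0.21. All 9 called genes had the same sign in both. Asl differed by 0.70 in replicates 1 and 2 and by 0.86 in replicate 3, Agxt by 0.81 and 0.84, and Kyat3 by -0.84 and -1.0. Haao changed sign between them, at -0.18 and 0.06, as did Cth, at 0.06 and -0.09, and Gnmt, at -0.0011 and 0.10.

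**Figure D3:**
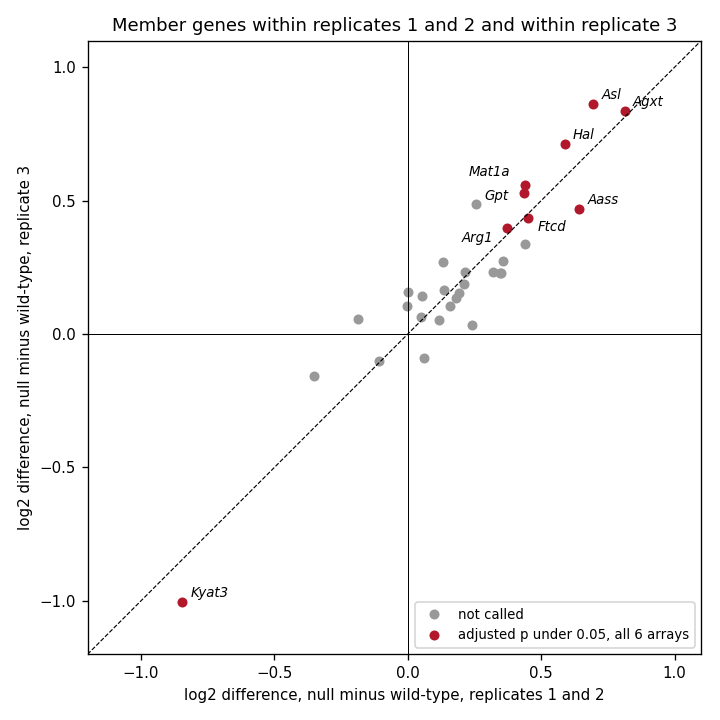
Difference in log2 expression value between SRC-2 null and wild-type liver in replicates 1 and 2 (x axis, mean of both) and in replicate 3 (y axis) for the 32 genes. Red points are genes called with all 6 arrays, and the dashed line marks equal differences. The 8 genes called higher lie in the upper right and Kyat3 in the lower left.

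The 5 called genes with an entry in RefSeq's promoter table (GRCm38.p6) are shown by the 250 bases before their start, because their transcripts moved and these bases hold the start-proximal control region. Capitals mark matches, on either strand, to the nuclear receptor half-site AGGTCA, the C/EBP-type motif TTGCNNAA, the E-box CACGTG, the TATA box TATAAA and the CCAAT box. The matches did not overlap. The other called genes are Asl, Mat1a, Gpt and Arg1. The windows are Agxt at chr1:93134990-93135239 (plus strand), Hal at chr10:93488518-93488767 (plus), Aass at chr6:23132987-23133236 (minus), Ftcd at chr10:76575398-76575647 (plus) and Kyat3 at chr3:142700798-142701047 (plus).
Agxt: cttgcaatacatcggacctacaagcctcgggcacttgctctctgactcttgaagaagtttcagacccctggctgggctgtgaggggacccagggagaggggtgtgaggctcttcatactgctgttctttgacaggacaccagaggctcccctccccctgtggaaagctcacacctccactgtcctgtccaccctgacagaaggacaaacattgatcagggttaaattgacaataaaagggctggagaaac
Hal: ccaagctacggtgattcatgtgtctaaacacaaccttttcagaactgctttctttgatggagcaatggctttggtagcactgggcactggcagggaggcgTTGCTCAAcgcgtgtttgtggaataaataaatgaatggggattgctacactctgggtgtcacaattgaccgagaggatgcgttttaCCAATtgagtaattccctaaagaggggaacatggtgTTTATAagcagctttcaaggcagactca
Aass: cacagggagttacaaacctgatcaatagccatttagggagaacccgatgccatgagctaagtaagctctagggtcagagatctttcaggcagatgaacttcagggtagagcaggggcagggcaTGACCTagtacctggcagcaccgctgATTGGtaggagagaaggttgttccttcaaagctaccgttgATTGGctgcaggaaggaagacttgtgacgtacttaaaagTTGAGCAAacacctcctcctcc
Ftcd: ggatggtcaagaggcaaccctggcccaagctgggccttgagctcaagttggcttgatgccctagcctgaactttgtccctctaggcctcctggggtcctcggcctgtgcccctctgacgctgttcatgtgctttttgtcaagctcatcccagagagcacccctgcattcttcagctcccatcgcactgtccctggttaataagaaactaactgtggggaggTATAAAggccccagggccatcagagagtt
Kyat3: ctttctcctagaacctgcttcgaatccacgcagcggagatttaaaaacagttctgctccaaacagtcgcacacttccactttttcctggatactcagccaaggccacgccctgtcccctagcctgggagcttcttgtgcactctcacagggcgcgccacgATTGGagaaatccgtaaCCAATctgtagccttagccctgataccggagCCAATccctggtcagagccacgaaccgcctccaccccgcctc

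The 5 windows shared no single motif. The half-site AGGTCA stood in that of Aass, 127 bases before the start, and in 14% of all 32851 promoter windows. TTGCNNAA stood in those of Hal (150 bases before) and Aass (22 bases before) and in 9.56% of all. TATAAA stood in those of Hal and Ftcd, 28 and 29 bases before the start, and in 12.4% of all. CCAAT stood once in Hal, in 2 places in Aass and in 3 places in Kyat3, and in 33.8% of all. CACGTG was in none of the 5 and in 6.02% of all, and the Agxt window held none of these letters. Over the 28 windows of the 26 member genes in the table, AGGTCA stood in 10, TTGCNNAA in 3, CACGTG in 3, TATAAA in 4 and CCAAT in 12. A match is a description of the letters and not a bound site.

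Among the 7 urea cycle genes tested, Asl and Arg1, which make and split arginine, were called higher, against 1.55% of all genes. None was called lower (limma, 0 at an unadjusted p under 0.05), and the median difference was 0.17. Asl, which splits argininosuccinate into arginine and fumarate, read 11.85, 11.85 and 11.74 on the wild-type arrays and 12.48, 12.61 and 12.61 on the null arrays. Every null value was above every wild-type value, and the gene rose 1.68-fold (log2 difference 0.75, SE 0.08, limma adjusted p = 0.00157). Arg1, which cleaves arginine into urea and ornithine, read 13.03, 13.04 and 12.94 in wild-type and 13.39, 13.42 and 13.33 in null liver. The groups did not overlap, and the rise was 1.3-fold (log2 difference 0.38, SE 0.08, adjusted p = 0.0335).

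The other 5 urea cycle genes did not pass. Slc25a15, the ornithine carrier of the inner mitochondrial membrane, read 10.87, 10.89 and 11.04 in wild-type and 11.27, 11.18 and 11.27 in null liver. These groups did not overlap, with a difference of 0.31 and an adjusted p of 0.0992. Cps1, which makes carbamoyl phosphate from ammonia and starts the cycle, had a difference of 0.17 with a 95% interval of -0.01 to 0.34. Otc, which joins carbamoyl phosphate to ornithine, had a difference of 0.10 (interval -0.10 to 0.29). Nags, which makes the activator of Cps1, differed by 0.05 (interval -0.16 to 0.26). Ass1, which joins citrulline to aspartate, was measured by a single probe set of its own, 1459937_at, and differed by -0.10 (interval -0.33 to 0.12). That probe set was dim, at 6.53, 6.40 and 6.64 in wild-type and 6.39, 6.33 and 6.54 in null liver. A far brighter probe set shared with Gm5424 differed by 0.32 and is given under the other observations, so the direction for Ass1 is not settled here.

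The transaminases, which move amino groups between amino acids and 2-oxo acids, were all on the higher side. Of 5 tested, Agxt and Gpt were called higher, against 1.55% of all genes. In the brightest probe sets, all 5 had null values entirely above the wild-type values. This compares with 10.8% of all genes and 63 of the 306 genes at or above the median member mean. Some dimmer probe sets of Gpt2 and Got2 overlapped, as given below. The median difference was 0.41. Agxt, an alanine-glyoxylate aminotransferase, read 10.60, 10.56 and 10.62 in wild-type and 11.32, 11.47 and 11.46 in null liver. The gap between the groups was many times the spread within them, and the rise was 1.77-fold (log2 difference 0.82, SE 0.08, limma adjusted p = 0.000918). Gpt, the cytosolic alanine aminotransferase, read 10.82, 10.85 and 10.82 in wild-type and 11.26, 11.29 and 11.35 in null liver. It rose 1.38-fold (log2 difference 0.47, SE 0.08, adjusted p = 0.0121).

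Gpt2, the mitochondrial alanine aminotransferase, had a difference of 0.33 (interval 0.13 to 0.53) and an adjusted p of 0.0825. Got1, the cytosolic aspartate aminotransferase, read 11.43, 11.55 and 11.30 in wild-type and 11.97, 11.90 and 11.63 in null liver. Replicate 3 was the lowest in both genotypes, and the difference of 0.41 had an adjusted p of 0.104. Got2, its mitochondrial counterpart, had a difference of 0.18 (interval -0.00 to 0.36) and an adjusted p of 0.305.

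Of 4 histidine genes tested, Hal and Ftcd, at the first and last steps, were called higher, against 1.55% of all genes. All 4 differences were above 0, and the median was 0.37. Hal, histidine ammonia-lyase, which turns histidine into urocanate and ammonia, read 10.59, 10.67 and 10.61 in wild-type and 11.19, 11.25 and 11.32 in null liver. The groups stood well apart, and the rise was 1.55-fold (log2 difference 0.63, SE 0.08, limma adjusted p = 0.00324). Ftcd, which passes the formimino group of histidine to tetrahydrofolate, read 10.97, 11.05 and 11.12 in wild-type and 11.49, 11.43 and 11.55 in null liver. It rose 1.36-fold (log2 difference 0.44, SE 0.08, adjusted p = 0.0216).

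Amdhd1, the imidazolonepropionase between them, read 9.73, 9.65 and 9.82 in wild-type and 10.06, 9.96 and 10.05 in null liver. The groups did not overlap, but the difference of 0.29 did not pass (adjusted p = 0.112). Its dimmer probe set, 1447380_at, differed by 0.49 (interval 0.15 to 0.82), also without overlap, beside 0.44 for Ftcd. Fitted on its own, that probe set did not pass (limma adjusted p = 0.167). Amdhd1 and Hal are adjacent protein-coding genes on chromosome 10. Uroc1, urocanate hydratase, had a difference of 0.17 with an interval of -0.13 to 0.47 and overlapping groups.

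Lysine breakdown is represented by 1 gene. Aass, the bifunctional enzyme that starts the saccharopine route, read 10.66, 10.73 and 10.67 in wild-type and 11.36, 11.31 and 11.14 in null liver. Every null value exceeded every wild-type value, and the rise was 1.5-fold (log2 difference 0.59, SE 0.09, limma adjusted p = 0.00792).

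In the methionine cycle 1 of 6 genes was called higher, against 1.55% of all genes. None was called lower (limma, 0 at an unadjusted p under 0.05), and the median difference was 0.19. Mat1a, which makes S-adenosylmethionine in adult liver, read 13.15, 13.18 and 12.88 in wild-type and 13.59, 13.63 and 13.44 in null liver. Replicate 3 was the lowest in both genotypes, the groups did not overlap, and the rise was 1.39-fold (log2 difference 0.48, SE 0.11, adjusted p = 0.0427). Cbs, which commits homocysteine to cysteine synthesis, read 10.34, 10.34 and 10.29 in wild-type and 10.57, 10.62 and 10.78 in null liver. These groups were apart, with a difference of 0.33 and an adjusted p of 0.0764.

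Bhmt, which remethylates homocysteine with betaine, and Ahcy, which hydrolyses S-adenosylhomocysteine, had differences of 0.20 and 0.18 with non-overlapping groups and adjusted p values of 0.218 and 0.28. Gnmt, which consumes S-adenosylmethionine to methylate glycine, differed by 0.03 (interval -0.14 to 0.21). Gnmt, Bhmt and Ahcy, like Cps1 and Hpd, had group means of 13.10 to 13.80, where a change near the top of the scale could be missed. Cth, which releases cysteine from cystathionine, differed by 0.01 (interval -0.21 to 0.23), and its sign turned to -0.0014 when the arrays were centred on their medians.

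None of the 4 aromatic genes, which act in series on the breakdown product of tyrosine, passed in limma, while 1 reached an unadjusted p below 0.05. All 4 differences were above 0, with a median of 0.14. Hpd, 4-hydroxyphenylpyruvate dioxygenase, read 13.59, 13.60 and 13.55 in wild-type and 13.73, 13.88 and 13.78 in null liver. Its groups did not overlap, with a difference of 0.22 (interval 0.04 to 0.41) and an adjusted p of 0.207. It was called under the robust trended prior, at an adjusted p of 0.0237. Hgd, homogentisate dioxygenase, Gstz1, maleylacetoacetate isomerase, and Fah, fumarylacetoacetase, had overlapping groups and differences of 0.15, 0.14 and 0.08. Gstz1 had the widest spread within a genotype of the 32 genes, with an SD of 0.32 in null liver, where replicate 3 read 10.68 against 11.07 and 11.32.

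Of the 4 tryptophan genes 1 was called lower, the single lower call among the 32, against 3.13% of all genes. None was called higher in limma, where 1 had a positive difference at an unadjusted p under 0.05. Kyat3, a kynurenine aminotransferase that makes kynurenic acid, read 10.64, 10.65 and 10.56 in wild-type and 9.80, 9.80 and 9.56 in null liver. All null values lay far below the wild-type values, and the fall was 1.86-fold (log2 difference -0.90, SE 0.09, limma adjusted p = 0.0012). Afmid, the formamidase that makes kynurenine, read 9.64, 9.63 and 9.60 in wild-type and 10.04, 9.93 and 9.83 in null liver. Its groups were apart in the other direction, with a difference of 0.31 and an adjusted p of 0.0959. The dimmer Afmid probe sets above the filter, 1428885_at and 1431722_a_at, differed by 0.36 and 0.03, both with overlapping groups.

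Kmo, which hydroxylates kynurenine, read 10.16 on each wild-type array and 10.20, 10.22 and 10.22 in null liver. The difference of 0.05 (interval -0.12 to 0.22) did not pass although the groups did not overlap. Haao, which opens the ring of 3-hydroxyanthranilate, had overlapping groups and a difference of -0.10. Of the amino acids outside these pathways, proline is represented by Prodh, proline dehydrogenase, which read 10.04, 10.09 and 10.08 in wild-type and 9.62, 9.81 and 9.92 in null liver. All null values were below the wild-type values, but the difference of -0.29 did not pass (adjusted p = 0.171).

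**Figure D4:**
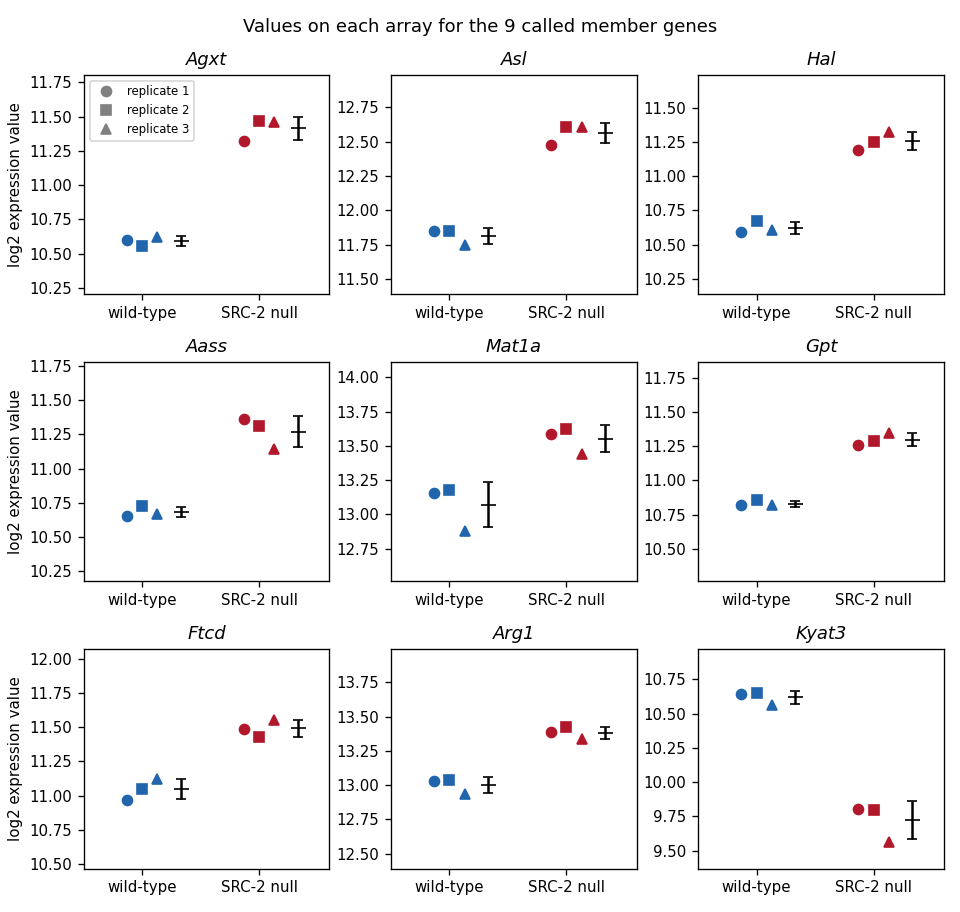
Log2 expression value (y axis) on each of the 6 arrays for the 9 called genes, with wild-type in blue and SRC-2 null in red. Symbols mark the replicate number, and the black bar is the mean ± SD of 3 arrays. Each panel spans the same height on the log2 scale, and in no panel do the genotypes overlap.

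The values by probe set showed where several probe sets of a gene gave like differences. Of 47 probe sets above the filter, 42 had a difference above 0, and 6 were called higher and 1 lower when each was fitted on its own, against 0.617% and 1.79% of all 19623 probe sets. The 7 called were those of Agxt, Kyat3, Asl, Hal, Aass, Gpt and Ftcd, while Arg1 and Mat1a did not pass over this larger number of tests. The higher count was 2 without wild-type array 1, 3 without wild-type array 2, wild-type array 3, null array 1 or null array 2, and 4 without null array 3.

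For 22 genes, including 8 of the 9 called, a single probe set was the measurement. Gpt, the exception, had a second probe set, 1453216_at, with a difference of 0.28 that did not pass. All 4 Gpt2 probe sets lay between 0.25 and 0.39, and both Cbs probe sets between 0.33 and 0.37. Groups overlapped for the Gpt2 probe sets 1439029_at and 1434542_at and the Got2 probe sets 1417716_at and 1430397_at. The Otc probe sets 1436615_a_at and 1425540_at differed by 0.29 and 0.23, with non-overlapping groups, beside 0.10 for its brightest one. The Hgd probe sets had opposite signs, 0.15 and -0.16.

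In some second probe sets replicate 3 stood apart in both genotypes. The dimmer Slc25a15 probe set, 1420966_at, read 9.20, 9.26 and 8.49 in wild-type and 9.90, 9.78 and 8.85 in null liver. The Got2 probe set 1417716_at read 10.32, 10.31 and 9.73 in wild-type and 10.54, 10.55 and 9.98 in null liver. The Uroc1 probe set 1425003_at went the other way, at 6.58, 7.31 and 8.91 in wild-type and 7.34, 7.67 and 8.84 in null liver, and its difference within replicate 3 was below 0.

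**Figure D5:**
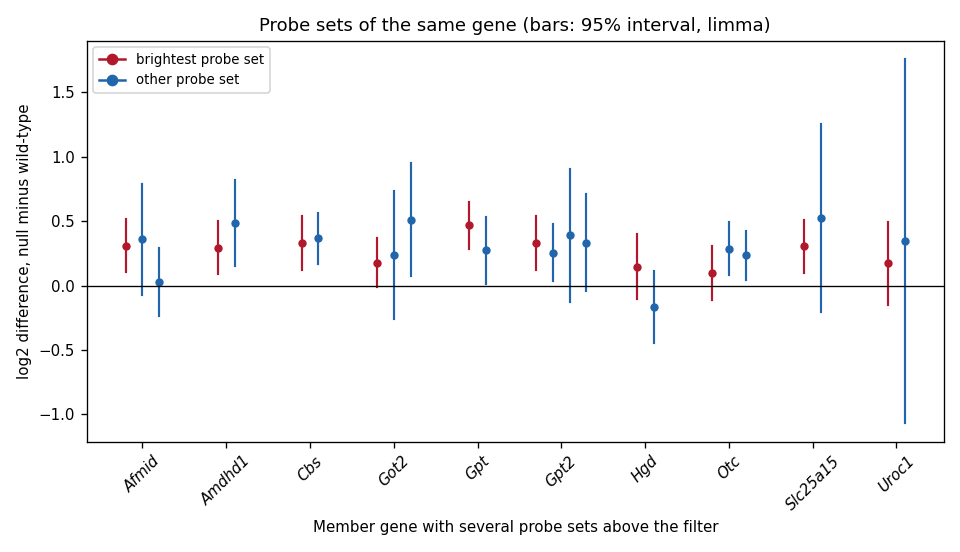
Difference in log2 expression value between SRC-2 null and wild-type liver (y axis) for each probe set above the filter of the 10 genes with several (x axis). Red is the brightest probe set of the gene, blue the others, and bars are 95% intervals from limma. Hgd is the gene whose probe sets lie on both sides of 0, and the Uroc1 probe set with the longest bar is the one whose replicates spread widely.

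Of 59 other genes of amino acid breakdown tested from a list of 68, 3 were called higher, 2 lower, and 54 did not pass, against 1.55% higher and 3.13% lower over all genes. The difference was above 0 for 48 of the 59, against 50.6% of all genes, with a median of 0.12. Those higher were Gldc, a subunit of the glycine cleavage system (1.33-fold), Ivd, an enzyme of leucine breakdown (1.27-fold), and Aldh7a1, which acts later in lysine breakdown (1.26-fold). Those lower were Glul, glutamine synthetase (1.40-fold), and Hao1, which makes glyoxylate, a substrate of Agxt (1.35-fold). Aldh7a1 was named after its value was seen, as the last of the 5. Glul read 11.35, 11.41 and 11.36 in wild-type and 10.89, 10.92 and 10.87 in null liver, groups that stood clearly apart (limma adjusted p = 0.00964).

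The higher calls depended on single arrays and on the processing. No gene of this list was called higher without wild-type array 1, wild-type array 2, null array 1, null array 2 or null array 3, against 14 at an unadjusted p under 0.05 with all arrays in limma. The lower calls numbered 0 without wild-type array 2, 2 without null array 3, and 1 without each of the other 4 arrays. No gene was called higher with the arrays centred on their medians or with no filter on low values, and 2 were lower under both. With the mean of its probe sets Aldh7a1 had a difference of 0.15 (adjusted p = 0.362), while 5 genes of the list were called higher. With the replicate number as a block, 5 were called higher and 2 lower.

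Of 16 amino acid transporter genes, 4 were called lower and 1 higher, against 3.13% lower and 1.55% higher over all genes, with a median of 0.00. Slc3a1, a subunit of the cystine and basic amino acid transporter, fell 1.44-fold, and Slc38a2, a transporter of small neutral amino acids, fell 1.43-fold. Slc16a10, an aromatic amino acid transporter, fell 1.39-fold, and Slc6a13, which carries GABA and taurine and was named after its value was seen, fell 1.28-fold. Slc43a1, a transporter of large neutral amino acids, rose 1.58-fold from 6.41 ± 0.13 to 7.07 ± 0.18 (SD, n = 3). The lower calls numbered 0 without wild-type array 2 or null array 2, 1 without wild-type array 1, wild-type array 3 or null array 1, and 2 without null array 3. The call of Slc43a1 was lost without wild-type array 2, null array 1 or null array 2.

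None of 16 regulators that act on these pathways in liver passed in limma, while 3 reached an unadjusted p below 0.05. Klf15, a transcription factor of amino acid breakdown, read 10.58, 10.62 and 10.53 in wild-type and 10.23, 10.25 and 10.28 in null liver. The groups did not overlap, and the difference was -0.32 with an adjusted p of 0.0569. Cebpb, a transcription factor of the C/EBP family, and Foxo1, a forkhead factor restrained by insulin, had differences of -0.54 and -0.40 and adjusted p values of 0.153 and 0.219. With the replicate number as a block, the limma adjusted p was 0.0197 for Cebpb and 0.024 for Foxo1, and both were called. Creb3l3, a membrane-bound transcription factor of liver, had a difference of 0.18 (adjusted p = 0.298).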

How the data were processed

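Liver RNA was measured on 3 SRC-2 null and 3 wild-type arrays. The authors deposited log2 expression values summarised per probe set with RMA (robust multi-array average), as the submitters' processing notes state. For RMA, version and chip definition were not given in the sources used here, nor was a genome build. RMA compresses folds near the low end.

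Gene symbols came from the platform annotation. Of 45101 probe sets, 34945 had 1 symbol, 932 several, 9160 none listed, and 64 were controls. The 32 genes found matched RefSeq by gene number. The brightest single-symbol probe set stood for each gene, genes with a mean of at least 4.21 were kept, and genotypes were compared with limma 3.58.1 under R 4.3.3 (lmFit and eBayes, two-sided tests) on genotype alone. Figures used matplotlib 3.10.9. The procedure was also run on simulated data. Their noise was independent between arrays, so that run cannot show how the fit handles the deviation shared by replicate 3 of both genotypes.

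The genotypes share replicate numbers. Same-numbered arrays deviated together, with correlations of 0.18, 0.20 and 0.52 for replicates 1, 2 and 3. Wild-type array 1 correlated as well with null array 2 (0.21), and wild-type array 2 with null array 1 (0.17). The data therefore set apart replicate 3 but do not pair replicates 1 and 2. Pairing of those 2 in the replicate block rests on their shared numbers, and the labels do not state a pairing.

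Members, lists and motifs were chosen with earlier results of these data known. Every member was named, and, of the lists of other breakdown genes, transporters and regulators, the up to 4 genes with the smallest p; the last called gene of the first 2 lists was added after its value was seen, and so were the cell markers named singly. No arrays held identical values.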

Additional observations from a re-analysis of the deposited data

How the results depend on the processing

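Agxt, Asl, Hal, Aass and Kyat3 kept their direction and their calls under all 15 alternatives, and the median difference of the 32 genes stayed between 0.18 and 0.24. Against 556 genes called over all (184 higher, 372 lower), 982 (375 and 607) were called with replicate 3 set apart as a term, 329 (95 and 234) in replicates 1 and 2 only, and 985 (405 and 580) with array weights, and 307 were higher with the replicate block. Leaving out 1 array gave 275 to 438 genes, 65 to 174 higher and 210 to 315 lower. Against 9 members called (8 higher), 15 (14 higher) were called with replicate 3 set apart, 5 (4 higher) in replicates 1 and 2 only, and 18 (17 higher) with a trended and robust prior. Without 1 array 5 to 7 were called, 4 to 6 of them higher. Against 7 member probe sets called (6 higher), the numbers were 15 (14 higher) with replicate 3 set apart and with the trended and robust prior, 4 (3 higher) in replicates 1 and 2 only, and 3 to 5 (2 to 4 higher) without 1 array. Besides Got1, Cebpb and Foxo1, which gained calls, the replicate block changed no other call among the named genes. Signs turned for uncalled genes near 0: Nags was -0.0141 with array weights and -0.0091 to 0.12 without 1 array, Hgd was -0.0087 with the mean of its probe sets, Gnmt was -0.0011 in replicates 1 and 2 only, Cth was -0.0014 with centred arrays and -0.0347 to 0.0912 without 1 array, and Gstz1 was -0.0119 to 0.31 without 1 array. Counts fall with fewer arrays; for the other settings the cause was not tested. Over all single genes fitted under the alternatives, those given above included, 89 values lost a call, 31 gained one and 575 did neither and kept their sign.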

Other observations

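A further bright probe set, 1416239_at, is annotated to Ass1 and Gm5424 together, so its signal cannot be assigned to either gene and it entered no test. It read 13.16, 13.17 and 13.05 on the wild-type arrays and 13.42, 13.52 and 13.41 on the null arrays, with null values all above the wild-type values and a difference of 0.32. The single-gene Ass1 probe set differed by -0.10, with overlapping groups. It was singled out after its values were seen.

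The 2 member probe sets below the filter belonged to Got2 and Afmid. The Got2 probe set 1447768_at had means of 2.32 in wild-type and 2.55 in null liver, and the Afmid probe set 1447638_at had 2.13 and 2.37. At this level the signal is mostly background, and no difference is read from them.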
